A study of Rattus norvegicus with 6 samples.

Results

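The genes of macroautophagy were examined in rat synovial fibroblasts treated with TNF-α alone or with TNF-α and emodin (EMO), an anthraquinone of rhubarb. The set held 38 genes chosen by symbol, which were the core autophagy machinery and 5 cargo receptors, and 37 of them had a row among the 34156 genes of the count table (Atg4a was not analysed here). All 37 had enough counts to be tested, so no member was lost to the filter on low values. The cells are rat RA-FLS (fibroblast-like synoviocytes labelled as rheumatoid arthritis, WT genotype), bought from a cell supplier, and RNA was sequenced from 3 cultures of the TNF-α group (10 ng/mL TNF-α) and 3 of the TNF-α+EMO group (10 ng/mL TNF-α with 80 μmol/L EMO). Every culture thus received TNF-α, and no culture without it was among the libraries. The labels give day 5 for both groups, whereas the study's methods give a shorter incubation. The question put to these data was which transcripts differ when EMO is added to TNF-α.

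Macroautophagy encloses cytoplasm in a double membrane and delivers it to the lysosome. The ULK kinase complex starts the process, a class III phosphatidylinositol 3-kinase complex marks the membrane with its lipid, and ATG9 vesicles, ATG2 and WIPI proteins feed the growing membrane. A ubiquitin-like conjugation system then couples the small ATG8 proteins (the LC3 and GABARAP families) to phosphatidylethanolamine, and cargo receptors such as p62 (Sqstm1) bind both an ATG8 protein and the cargo. Receptors and membrane-bound ATG8 proteins are themselves degraded in the lysosome, and transcript levels measure neither that turnover nor the flow through the pathway.

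The libraries held 16813322 to 17794455 counts on genes, and 37 mitochondrially encoded genes took 3.35% to 3.58% of the counts with TNF-α alone and 0.363% to 0.399% with EMO added. Of 11 fibroblast-like synoviocyte markers with a row, 7 could be tested and all 7 were lower with EMO, and the summed normalized count of the 11 was 200437 to 220567 in the TNF-α group and 35128 to 37810 in the TNF-α+EMO group. Col1a1, Col3a1 and Pdgfra were abundant with TNF-α alone, but the synovial lining markers Pdpn and Prg4 held at most 1 and 4 counts in any library. Thy1 and Has1, also under the filter, held at most 7 and 16. Leukocyte markers were near the floor of detection, with at most 1 count of Ptprc (CD45) in a library and none of Cd163, although Cd14 and Cd68 were detected in both groups, and the summed normalized count of the 11 leukocyte markers was 1205 to 1311 and 747 to 818. Most of that sum was Cd14, which fell, while the other tested leukocyte markers rose, Cd68 by 0.75 on the log2 scale (adjusted p = 2.4e-04, edgeR) and Itgam from at most 1 count to between 10 and 14 (adjusted p = 2.1e-04). The endothelial sums were 69 to 77 and 13 to 22, and most of the former was Vwf (mean 53.4 with TNF-α alone, 4.46 with EMO). The epithelial sums were 9950 to 10806 and 1984 to 2333 (nearly all Krt8, whereas Cldn4 rose from 0 counts in each library to 16, 17 and 28). The chondrocyte sums were 471 to 562 and 9 to 10, and most of the former was Sox9 (mean 487 with TNF-α alone, 4.10 with EMO). Col2a1 went from 0 counts in each library to 2, 5 and 3. Kdr, Epcam and Acan were at 0 in every library. The part of these marker shifts in the autophagy values was not tested. In bulk RNA, fewer cells of a type and less of a transcript per cell cannot be told apart.

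With EMO the autophagy genes were mostly higher, and the largest rises were those of Gabarapl1, an ATG8 gene, and Sqstm1, a cargo receptor. By edgeR's quasi-likelihood test (Benjamini-Hochberg adjusted p under 0.05 over 13614 genes), 26 of the 37 rose, 7 fell and 4 did not pass. Over all genes tested, 39.4% were called higher and 41.4% lower, so the members' share of 70.3% higher and 18.9% lower stood on the higher side of a background in which 80.9% of genes were called. More than 2-fold, 17 members rose and none fell, against 19.5% of all genes higher and 27.8% lower by the same rule. The median log2 fold change (TNF-α+EMO over TNF-α) was 0.98 over the members and -0.01 over all genes tested. By role the median was highest in the cargo receptors (1.53), the ATG8 family (1.38) and the conjugation genes (1.36). In 34 of the 37, the 3 TNF-α+EMO libraries lay wholly above or wholly below the 3 TNF-α libraries in normalized counts (counts scaled by edgeR's TMM factors), where 82.9% of all genes did so. The median coefficient of variation between libraries of one group was 4.45% for the members in the TNF-α group and 7.92% in the TNF-α+EMO group, against 6.37% and 10.9% for all genes tested.

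**Figure D1:**
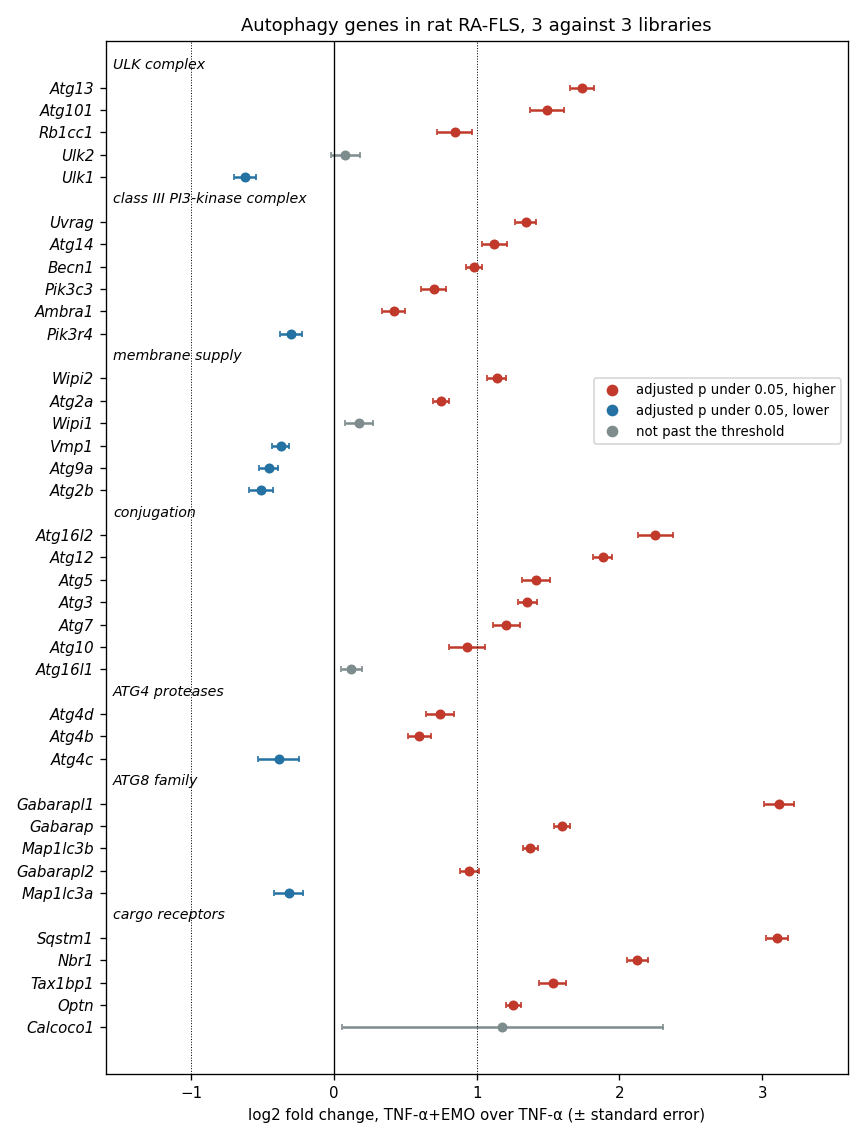
Log2 fold change (TNF-α+EMO over TNF-α) of the 37 autophagy genes tested, grouped by role, with bars for the standard error and dotted lines at a 2-fold change. Red points passed an adjusted p under 0.05 and were higher with EMO (26 genes), blue points were lower (7 genes) and grey points did not pass (4 genes). Gabarapl1 and Sqstm1 lie furthest to the right, and no blue point reaches the 2-fold line.

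Of the 5 cargo receptors 4 rose, each more than 2-fold, and Calcoco1 did not pass. Sqstm1 was the most abundant member per kilobase with EMO (35075 normalized counts per kilobase, against 18985 for Gabarap), while Gabarap was the most abundant with TNF-α alone (6273, against 4075 for Sqstm1). Sqstm1 encodes p62, which gathers ubiquitinated proteins and also binds KEAP1, the repressor of NRF2. It lies on chromosome 10 from 35704730 to 35716294 (coordinates as deposited, Rnor_6.0 according to the submitters' processing notes). Its normalized counts were 8489, 8094 and 8195 with TNF-α alone and 65554, 68274 and 79460 with EMO added. The groups were far apart, an 8.61-fold rise (log2 fold change 3.11, standard error 0.08, adjusted p = 4.7e-11, edgeR). Per kilobase of gene length, Sqstm1 ranked 295th by its mean level among the genes tested in the TNF-α group and 25th in the TNF-α+EMO group. It overlaps Mrnip on the opposite strand, whose counts ran from 128 to 194 over the 6 libraries.

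Nbr1, a receptor that shares the domain plan of p62 (chromosome 10, 89459650 to 89484080), had 5111, 5412 and 5161 normalized counts in the TNF-α group and 24703, 23293 and 20457 in the TNF-α+EMO group. It rose 4.36-fold (log2 fold change 2.13, standard error 0.07, adjusted p = 5.6e-10, edgeR). Tax1bp1, a ubiquitin-binding receptor that also restrains NF-κB signalling (chromosome 4, 82776746 to 82833773), went from 7107, 7429 and 7545 to 24057, 21788 and 18008, a 2.89-fold rise (adjusted p = 1.0e-07). Optn, optineurin, a receptor for damaged mitochondria and bacteria (chromosome 17, 77167740 to 77218389), went from 3932, 4042 and 3988 to 9616, 9735 and 9225, a 2.39-fold rise (adjusted p = 3.0e-09). In these 3 genes, as in Sqstm1, the lowest TNF-α+EMO library stood at more than 2 times the highest TNF-α library. TNF-α+EMO replicate 3 was the highest library for Sqstm1 and the lowest for the other 3.

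The exception was Calcoco1, a receptor for the endoplasmic reticulum and Golgi, in which the replicates varied more than the groups. Its normalized counts were 296, 30.2 and 178 with TNF-α alone and 681, 75.7 and 387 with EMO added. The groups overlapped and the difference did not pass (log2 fold change 1.18, standard error 1.13, adjusted p = 0.38, edgeR). Replicate 2 was the lowest and replicate 1 the highest in both groups, and the highest library exceeded the lowest 9.80-fold in the TNF-α group and 8.99-fold in the TNF-α+EMO group.

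Summed per kilobase over the 5 receptors, the level was 8403 to 8492 with TNF-α alone and 47696 to 51519 with EMO added, a ratio of means of 5.80. The shares of the receptors in that sum differed between the groups, as a description with no test. Sqstm1 made up 48.2% ± 0.98 (SD, n = 3) of that sum with TNF-α alone and 71.4% ± 4.24 in the TNF-α+EMO group, while Tax1bp1 made up 27.5% ± 0.93 and 13.8% ± 2.50, and Optn 9.81% ± 0.19 and 4.05% ± 0.28. A falling share here goes with a rising level, because Sqstm1 rose by more than the others.

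Among the ATG8 genes, 4 of 5 rose and Map1lc3a fell. Gabarapl1, a GABARAP paralog (chromosome 4, 163293724 to 163302858), had the largest log2 fold change of all members, 3.12 (standard error 0.11, adjusted p = 7.4e-10, edgeR). Its normalized counts were 775, 763 and 843 in the TNF-α group and 6002, 6667 and 7972 with EMO. Its fold of 8.67 and that of Sqstm1 differed by less than their standard errors, so their order is not resolved. Gabarap itself, already the most abundant ATG8 transcript (chromosome 10, 56601288 to 56604221), went from 5049, 5196 and 5225 to 15236, 15689 and 15892, which is 3.03-fold (adjusted p = 3.9e-10).

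Map1lc3b encodes LC3B, the protein most used to follow autophagosomes (chromosome 19, 53629779 to 53646058). The 3 TNF-α libraries held 2671, 2667 and 2795 normalized counts and the TNF-α+EMO libraries 6946, 7082 and 7087, a 2.60-fold rise (log2 fold change 1.38, standard error 0.05, adjusted p = 1.5e-09, edgeR). Gabarapl2 (GATE-16) went from 954, 884 and 894 to 1843, 1718 and 1712, just under 2-fold (log2 fold change 0.95, adjusted p = 1.8e-07). Map1lc3a, which encodes LC3A, moved the other way, from 1341, 1290 and 1200 to 890, 993 and 1189 (log2 fold change -0.32, standard error 0.10, adjusted p = 0.014). That fall was small, the groups almost touched, and it did not pass without TNF-α+EMO replicate 1 (-0.20, adjusted p = 0.058) or replicate 2 (-0.27, adjusted p = 0.072).

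**Figure D2:**
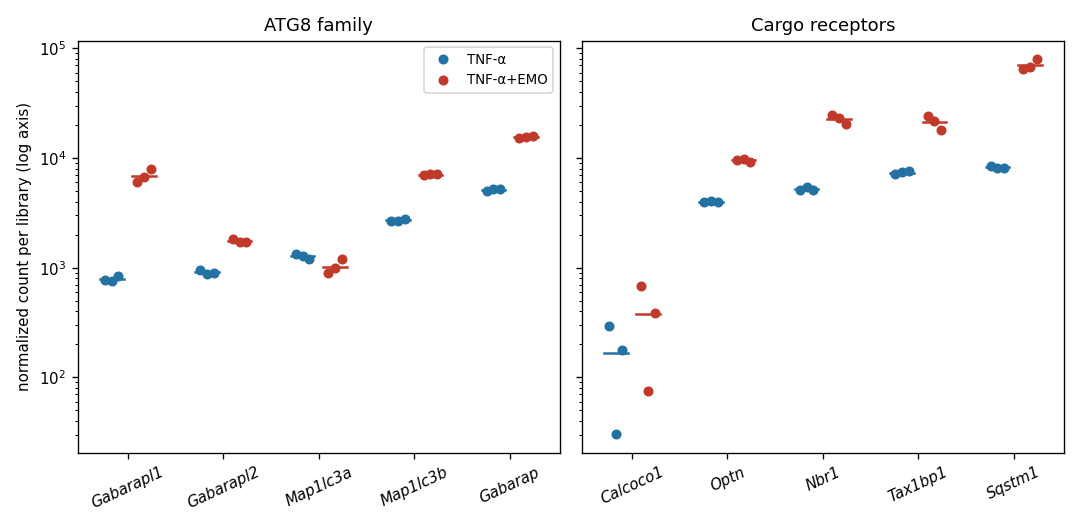
Normalized counts in each library (log axis) of the 5 ATG8 genes (left) and the 5 cargo receptors (right), with TNF-α libraries in blue, TNF-α+EMO libraries in red and a line at each group mean. The red points lie above the blue ones in all but Map1lc3a, where they lie below, and Calcoco1, where the 30.2 to 296 counts of the TNF-α libraries overlap with the 75.7 to 681 of the TNF-α+EMO libraries.

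Summed per kilobase, the ATG8 family stood at 10036 to 10176 with TNF-α alone and 27946 to 30216 with EMO added, a ratio of means of 2.87. Gabarap was the largest part in every library, at 62.1% ± 0.75 (SD, n = 3) and 65.4% ± 1.23. Gabarapl1 made up 4.65% ± 0.23 and 14.0% ± 1.49 of the sum, and Map1lc3a 13.0% ± 0.82 and 3.63% ± 0.39. Map1lc3b held a similar part in both groups, 14.6% ± 0.31 and 13.2% ± 0.39, although its own level rose. In the TNF-α group Map1lc3a and Map1lc3b were nearly equal per kilobase, with a ratio of Map1lc3b to Map1lc3a of 1.12 ± 0.09, and with EMO that ratio was 3.67 ± 0.49.

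**Figure D3:**
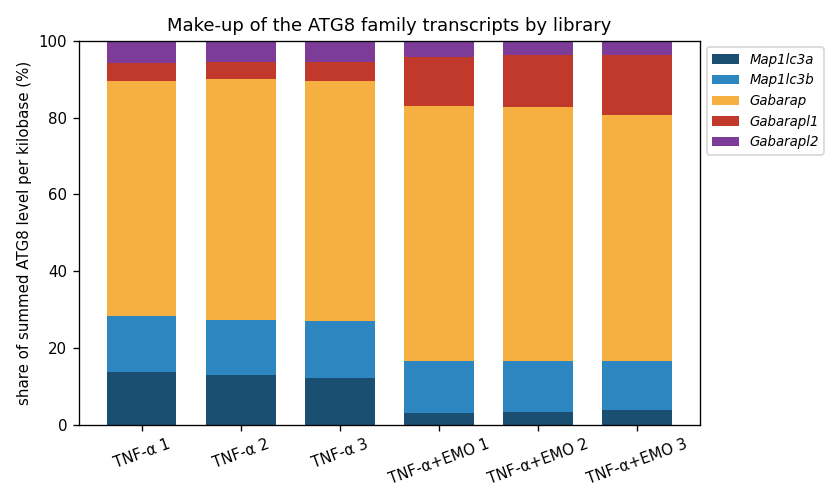
Share of each ATG8 gene in the summed ATG8 level per kilobase of gene length (%), one stacked bar per library. Gabarap (yellow) fills 61.2% to 66.3% of each bar, Gabarapl1 (red) is 4.47% to 4.91% with TNF-α alone and 12.7% to 15.6% with EMO added, and Map1lc3a (dark blue) is narrower with EMO.

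The conjugation genes rose almost throughout, with 6 of 7 higher, 5 of them more than 2-fold, and none lower. Atg12, the ubiquitin-like protein that is joined to ATG5 (chromosome 18, 40721800 to 40732126), went from 930, 923 and 930 normalized counts to 3552, 3551 and 3158. This was a 3.69-fold rise (log2 fold change 1.88, standard error 0.07, adjusted p = 6.6e-10, edgeR) from TNF-α libraries that differed by less than 10 counts. Its partner Atg5 went from 502, 502 and 587 to 1496, 1503 and 1249 (2.67-fold, adjusted p = 1.6e-07). The E1-like enzyme Atg7 had 424, 422 and 342 counts against 915, 904 and 925 (2.31-fold, adjusted p = 4.6e-07). Atg3, the E2-like enzyme that acts on ATG8 proteins (chromosome 11, 60585171 to 60613718), had 901, 836 and 853 against 2133, 2138 and 2358 (2.56-fold, adjusted p = 1.1e-08). No library of one group reached the other in any of these genes. Atg10, the E2-like enzyme for ATG12, rose by less than 2-fold from a low level (143 ± 9.39 to 273 ± 22.2, SD, n = 3 each, adjusted p = 4.4e-05).

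ATG16L1 places the ATG12-ATG5 conjugate on the membrane, and of Atg16l1 and its paralog Atg16l2 only Atg16l2 passed. Atg16l2 went from 173, 131 and 135 normalized counts to 682, 647 and 760 (log2 fold change 2.25, standard error 0.12, adjusted p = 1.9e-08, edgeR). Atg16l1 had 845 ± 13.3 and 918 ± 46.9 (SD, n = 3 each) and did not pass (log2 fold change 0.12, adjusted p = 0.15), although its libraries did not overlap. Per kilobase, Atg16l1 exceeded Atg16l2 by 3.72 ± 0.52 times in the TNF-α group, and with EMO the ratio was 0.84 ± 0.03, so Atg16l2 was the less abundant paralog with TNF-α alone and the more abundant one with EMO.

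The ULK complex was divided between its kinases and its other subunits. Atg13, the subunit that recruits the kinase (chromosome 3, 80581247 to 80601410), went from 594, 644 and 587 normalized counts to 2203, 2062 and 1823, a 3.33-fold rise (log2 fold change 1.74, standard error 0.08, adjusted p = 7.6e-09, edgeR). Its binding partner Atg101 went from 793, 717 and 740 to 1813, 1969 and 2547 (2.81-fold, adjusted p = 1.3e-06), and the scaffold Rb1cc1 (FIP200) from 1609 ± 140 to 2891 ± 504 (SD, n = 3 each, log2 fold change 0.84, adjusted p = 1.8e-04). Ulk1, the kinase that starts autophagy (chromosome 12, 51908448 to 51934702), fell from 1051, 1087 and 982 to 667, 690 and 668. That was the lowest log2 fold change among the members, -0.62 (standard error 0.07, adjusted p = 1.4e-05). Ulk2 had 910, 942 and 811 against 1052, 951 and 812 and did not pass (log2 fold change 0.08, adjusted p = 0.49), with overlapping groups. It passed as higher without TNF-α+EMO replicate 3 (0.19, adjusted p = 0.029), and its sign turned without TNF-α replicate 3 (-0.055, adjusted p = 0.68). Each such fit also repeated the filter and the scaling, so these shifts may not come from the left-out library alone. The ratio of Ulk1 to Ulk2 per kilobase was 1.35 ± 0.04 in the TNF-α group and 0.84 ± 0.11 with EMO.

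Within the class III phosphatidylinositol 3-kinase complex, 5 of 6 genes rose and 1 fell. Becn1 (Beclin 1), the complex's regulatory core, rose from 2411 ± 54.7 to 4757 ± 139 (SD, n = 3 each, log2 fold change 0.98, standard error 0.06, adjusted p = 2.9e-08, edgeR), and the catalytic subunit Pik3c3 (VPS34) from 840 ± 47.1 to 1362 ± 134 (0.70, adjusted p = 2.0e-05). The complex exists in alternative forms that carry either Atg14, for autophagosome formation, or Uvrag, for endosomal traffic and later steps, and both of these rose more than 2-fold. Atg14 went from 288, 283 and 263 to 641, 600 and 578 (2.18-fold, adjusted p = 4.2e-07). Uvrag went from 772, 710 and 746 to 1982, 1777 and 1890 (2.54-fold, adjusted p = 1.5e-08). Ambra1, which regulates Beclin 1, rose by less (log2 fold change 0.42, standard error 0.08, adjusted p = 5.2e-04). Pik3r4 (VPS15), the partner kinase of Pik3c3, fell from 908 ± 43.1 to 738 ± 24.9 (-0.30, standard error 0.08, adjusted p = 0.0035).

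Genes of membrane supply were the exception to the general rise of the members, with 2 of 6 higher, 3 lower and 1 not passing. This mix was near that of all genes tested, of which 39.4% were called higher and 41.4% lower. Whether these 6 genes differ from that background was not tested. Wipi2, which reads the phosphatidylinositol lipid and recruits ATG16L1, went from 1046, 1116 and 1162 normalized counts to 2461, 2299 and 2561 (log2 fold change 1.14, standard error 0.07, adjusted p = 4.6e-08, edgeR). Atg9a, the membrane protein of the seed vesicles, fell from 1754 ± 75.1 to 1277 ± 52.9 (SD, n = 3 each, -0.46, standard error 0.07, adjusted p = 6.0e-05), and the scramblase Vmp1 from 4400 ± 71.0 to 3394 ± 148 (-0.37, adjusted p = 1.1e-04). The lipid transfer paralogs Atg2a and Atg2b went opposite ways, Atg2a higher (log2 fold change 0.75, adjusted p = 3.4e-07) and Atg2b lower (log2 fold change -0.51, adjusted p = 2.0e-04). Wipi1 had 914 ± 29.5 and 1033 ± 137 and did not pass (0.18, adjusted p = 0.12). It passed as higher without TNF-α+EMO replicate 3 (0.30, adjusted p = 4.9e-04), and it overlaps Arsg on the opposite strand, whose mean normalized count was 536 in the TNF-α group and 299 in the TNF-α+EMO group. Summed per kilobase, the total of this group was 4058 to 4127 and 4240 to 4518, a ratio of means of 1.07. Vmp1, which fell, was its largest part, with a mean of 2233 per kilobase with TNF-α alone and 1722 with EMO. The near-level total thus joins falls with rises, such as that of Wipi2 (593 to 1306 per kilobase).

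The ATG4 proteases, which prime ATG8 proteins and release them from lipid, had no member past 2-fold, with 2 of 3 higher and 1 lower. Atg4b, the main protease of the family, rose from 954 ± 52.9 to 1444 ± 114 (SD, n = 3 each, log2 fold change 0.60, adjusted p = 3.5e-05, edgeR) and Atg4d from 306 ± 11.9 to 512 ± 48.3 (0.74, adjusted p = 3.2e-05). Atg4c fell from 237 ± 19.7 to 181 ± 26.5 (-0.39, standard error 0.14, adjusted p = 0.028). This fall did not pass without TNF-α replicate 3 (-0.39, adjusted p = 0.055) or without TNF-α+EMO replicate 3 (-0.25, adjusted p = 0.099).

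Ratios per kilobase were taken for 7 pairs of paralogs, picked with the values in view and given only as a description. The ratio of Atg2a to Atg2b was 2.15 ± 0.11 (SD, n = 3) with TNF-α alone and 5.17 ± 0.37 with EMO, that of Wipi1 to Wipi2 was 0.81 ± 0.07 and 0.41 ± 0.07, and that of Gabarap to Gabarapl1 13.4 ± 0.63 and 4.71 ± 0.57. Atg4b to Atg4d was the pair that moved least, at 4.15 ± 0.08 and 3.77 ± 0.28.

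**Figure D4:**
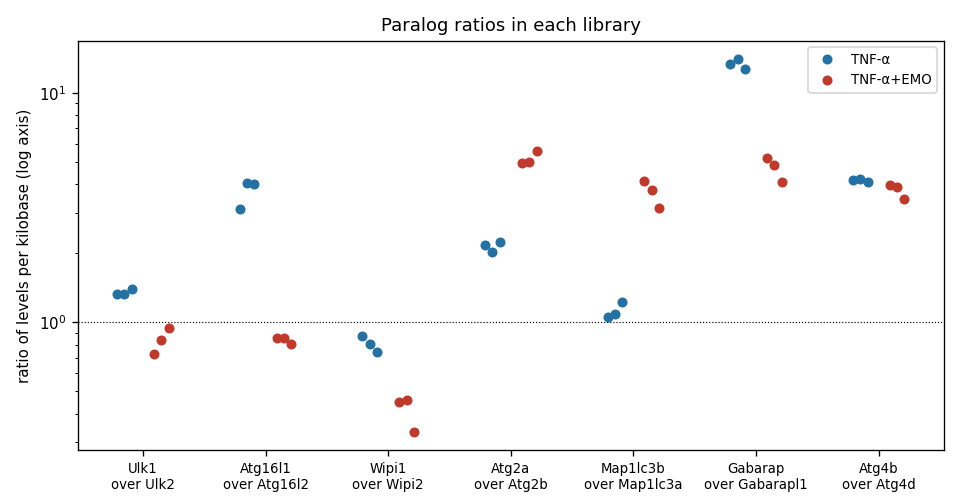
Ratio of the levels per kilobase of 7 pairs of autophagy paralogs in each library (log axis, dotted line at equal levels), with TNF-α libraries in blue and TNF-α+EMO libraries in red. For Ulk1 over Ulk2 and Atg16l1 over Atg16l2 the points cross the line of equal levels, from 1.33 to 1.40 down to 0.73 to 0.95 and from 3.12 to 4.03 down to 0.81 to 0.86.

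For the members, whatever their direction of change, promoter sequence was looked up in RefSeq (build GRCr8, 250 bases before to 50 after the gene's start), where 34 members matched by symbol. Each window was searched on both strands for TCACGTGA (bound by TFEB, the main activator of autophagy and lysosome genes), TGACNNNGC (the antioxidant response element of NRF2), TGATGCAA (an ATF4 and CHOP element) and GTAAACA (FOXO factors). TCACGTGA was found in 1 member promoter, that of Atg3, and in 0.777% of 33469 promoters. TGACNNNGC was found in 7 members (Atg10, Atg4b, Atg4d, Gabarap, Map1lc3b, Ulk2 and Vmp1), of which 5 rose, 1 fell and 1 did not pass, and in 12.1% of all promoters. TGATGCAA and GTAAACA were found in no member promoter and in 0.795% and 3.78% of all promoters. A match describes letters in this window and not binding. Shown are the promoters of the members with the largest rise (Gabarapl1, chr4:164666082-164666381, plus strand) and the largest fall (Ulk1, chr12:51511242-51511541, plus strand), which hold none of these letters, and, chosen afterwards for their matches, those of Atg3 (chr11:69159231-69159530, minus strand) and Map1lc3b (chr19:66574345-66574644, plus strand), each 5′ to 3′ on the gene's strand with the match in capitals.
Gabarapl1: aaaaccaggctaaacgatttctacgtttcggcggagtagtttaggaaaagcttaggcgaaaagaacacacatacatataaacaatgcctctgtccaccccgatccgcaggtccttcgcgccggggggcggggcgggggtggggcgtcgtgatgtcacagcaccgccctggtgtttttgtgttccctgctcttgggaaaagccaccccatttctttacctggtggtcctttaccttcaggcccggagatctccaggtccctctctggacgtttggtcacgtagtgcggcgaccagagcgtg
Ulk1: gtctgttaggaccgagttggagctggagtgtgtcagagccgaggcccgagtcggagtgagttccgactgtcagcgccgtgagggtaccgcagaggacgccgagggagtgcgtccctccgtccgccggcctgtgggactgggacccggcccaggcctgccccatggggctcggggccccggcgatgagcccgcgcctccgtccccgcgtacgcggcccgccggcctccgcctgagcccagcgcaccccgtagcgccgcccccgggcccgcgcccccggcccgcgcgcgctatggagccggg
Atg3: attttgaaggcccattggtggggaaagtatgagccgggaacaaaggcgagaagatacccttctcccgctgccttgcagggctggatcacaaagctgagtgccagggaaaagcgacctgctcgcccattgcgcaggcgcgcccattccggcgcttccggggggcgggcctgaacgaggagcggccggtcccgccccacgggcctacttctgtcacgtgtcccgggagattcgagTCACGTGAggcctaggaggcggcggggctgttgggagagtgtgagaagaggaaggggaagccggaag
Map1lc3b: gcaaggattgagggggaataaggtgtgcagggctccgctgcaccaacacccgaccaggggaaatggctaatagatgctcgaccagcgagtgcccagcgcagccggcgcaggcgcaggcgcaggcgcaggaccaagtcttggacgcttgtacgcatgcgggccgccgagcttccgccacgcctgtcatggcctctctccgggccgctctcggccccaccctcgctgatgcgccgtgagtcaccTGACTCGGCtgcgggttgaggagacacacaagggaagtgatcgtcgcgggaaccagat
The match in Atg3 begins 17 bases before the gene's start and that in Map1lc3b 8 bases before it. Gabarapl1, which rose 8.67-fold, and Sqstm1, which rose 8.61-fold, had no match to any of the 4 sequences within their windows.

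Other genes of the pathway also leaned towards higher values. They came from a list of 85 names, written with earlier results of these data known, of which 78 could be tested. Of these 54 rose, 17 fell and 7 did not pass (edgeR, adjusted p under 0.05), beside 39.4% higher and 41.4% lower over all genes tested, and the median log2 fold change was 0.65 against -0.01. In the list for fusion with the lysosome 12 of 14 were higher and none lower, and Lamp1, Rab7a and all HOPS tethering subunits on the list were among the higher. The 2 that did not pass had negative log2 fold changes, Stx17 (-0.27, adjusted p = 0.058) and Vamp8 (-0.13, adjusted p = 0.56). Among receptors for organelles, 13 of 17 rose and 3 fell. On the list of upstream kinases and nutrient sensors, which also held Bcl2 (lower) and Bcl2l1 (higher), 13 of 25 (52.0%) were higher and 9 (36.0%) lower. Of the transcription regulators, 6 of 9 rose and 2 fell, and Tfeb itself did not pass (log2 fold change -0.19, adjusted p = 0.087), while its relative Tfe3 rose by 1.16 (adjusted p = 3.2e-07).

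The largest changes on that list were in stress and nutrient regulators. Ddit3 (CHOP), a stress-induced transcription factor, went from 451 ± 5.82 to 27626 ± 1819 normalized counts (SD, n = 3 each, log2 fold change 5.94, standard error 0.08, adjusted p = 1.1e-12, edgeR), and Atf4, which lies upstream of it, rose by 2.80 (standard error 0.06). Sesn2, a sestrin that restrains mTORC1, rose by 4.46 (standard error 0.07) from 562 ± 21.3 to 12399 ± 338, whereas its paralog Sesn3 fell to 89.1 ± 5.51 from 711 ± 46.1 (-2.99, standard error 0.10, adjusted p = 5.0e-10). Trp53inp1, an ATG8-binding protein listed as Tp53inp1, rose by 3.06 and Fnip2, a partner of folliculin, by 2.58. The paralog Trp53inp2 fell from 2945 ± 160 to 1009 ± 58.2 (-1.54, adjusted p = 4.2e-09). The endoplasmic reticulum receptor Ccpg1 rose by 2.55, the tether Tecpr1, which binds the ATG12-ATG5 conjugate, by 2.51 and the glycogen receptor Stbd1 by 2.50. Smaller rises were those of Prkab2, a subunit of AMPK (2.11), and Rragd, a Rag GTPase (2.05). Other AMPK subunits were mixed, with Prkab1 (-0.96), Prkag2 (-0.93) and Prkaa1 (-0.64) lower and Prkaa2 higher (0.81), each passing the threshold. Per kilobase, Prkab1 stood at 488 and its paralog Prkab2 at 49.3 with EMO. Mtor fell by 0.83 (standard error 0.07), and both Foxo1 and Foxo3 fell, by 1.28 and 1.27. Adjusted p was at most 1.2e-06 in the 11 genes with changes above 2 on the log2 scale and a mean of at least 100 counts, each of which is named here.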

How the data were processed

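RNA of 3 TNF-α and 3 TNF-α+EMO libraries was poly(A)-selected and sequenced paired-end by the authors' provider. According to the submitters' processing notes and the paper's methods, reads were cleaned (FastQC, Trimmomatic) and aligned with HISAT2 to Rnor_6.0. The counting program, annotation version and strand setting are not given in the sources used here. The authors deposited raw counts per gene, which were used as they stand, and gene lengths, which were used for levels per kilobase. They also deposited FPKM values and a comparison of the groups (group means, log2 fold changes, p-values), neither of which was used.

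A gene was tested when 3 or more libraries held 10 counts or more (13614 of 34156). TMM-scaled counts were fitted with edgeR 4.0.16 (robust quasi-likelihood, F test) in R 4.3.3, and p-values were adjusted over every tested gene. Standard errors are the log2 fold change over the square root of F. On simulated counts of 13177 genes with this comparison's depths, edgeR recovered 96.6% of 89 genes changed by 1 on the log2 scale and 100.0% of 111 changed by 2, with 5.74% false calls. No other gene was changed there, and every gene had the TNF-α mean and the common dispersion. In the real data 80.9% of genes were called, so these rates may not carry over. Ratios and shares between genes are descriptions and got no test. The methods call the libraries biological replicates, but how the cultures were separated is not described, so the spread may be partly technical. Libraries held 16813322 to 17794455 counts.

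Members were grouped by role, and members, lists and motifs were chosen with earlier results of these data known. All members are named. Other pathway genes are named at an absolute log2 fold change over 2 and a mean of at least 100 counts. Lamp1, Rab7a, Tfeb, Tfe3, Mtor, Foxo1 and Foxo3 were added after their values were seen. So were Stx17, Vamp8, Trp53inp2 and the AMPK subunits Prkaa1, Prkaa2, Prkab1 and Prkag2. DESeq2 1.42.0, other scalings, filters, a replicate block and leaving out libraries were tried.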

Additional observations from a re-analysis of the deposited data

How the results depend on the processing

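Across 14 alternatives, 31 of the 33 called members passed with the same direction in every one, and the exceptions were Map1lc3a and Atg4c when single libraries were left out. The number of members higher stayed between 26 and 28 and that of members lower between 6 and 7. The median log2 fold change of the members (0.98) was 0.87 with total counts in place of TMM, 0.91 when 10 counts were asked of all 6 libraries, and 0.90 to 1.01 when one library was left out. Total counts moved the median over all genes from -0.01 to -0.12, so small log2 fold changes depend on the scaling. With a filter of 1 count that median was -0.13, over 19744 genes in place of 13614. Leaving out a library repeated the filter and the scaling too, and without TNF-α replicate 3 the median was 0.025 over 12666 genes. Ulk2 turned from 0.08 to -0.032 with total counts and to -0.055 without TNF-α replicate 3, not past the threshold in either, and passed at 0.19 without TNF-α+EMO replicate 3. The share of Map1lc3b in the ATG8 family with EMO was 21.8% in raw counts and 13.2% per kilobase, because its gene model is longer than that of Gabarap, and 13.0% to 13.4% when one library was left out. Numbers did not pair the libraries by the correlation of same-numbered deviations (0.019, -0.0068 and 0.068), and 3 of 6 libraries correlated best with their own number. With the replicate number as a block, 27 members were higher and 7 lower, and Calcoco1 then passed (log2 fold change 1.19, adjusted p = 1.2e-05). The lowest normalized count of any member in a library was 30.2, in Calcoco1, and all other members had more than 100.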

Other observations

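Atg9b, the paralog of Atg9a, was not in the set and was picked after its values were seen. It held 6, 8 and 5 counts with TNF-α alone and 819, 785 and 879 with EMO added (log2 fold change 7.07, standard error 0.15, edgeR), while Atg9a fell. Per kilobase, Atg9b was at 2.23 in the TNF-α group and 306 in the TNF-α+EMO group, against 430 and 313 for Atg9a, so the paralogs were at like levels with EMO. Atg9b lies on chromosome 4 from 7314369 to 7321029 and overlaps Nos3 on the opposite strand, which held 2 to 281 counts and was also higher with EMO (a mean of 222 against 2.93 normalized counts), and without a known strand setting the reads of such a pair cannot be told apart.

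The spread of Calcoco1 was unusual. Of 9993 genes with a mean of at least 50 normalized counts in each group, 22 had a highest library more than 5 times the lowest in both groups, with 1 added to each normalized count, and Calcoco1 was the only member among them. Within each number, TNF-α+EMO exceeded TNF-α by 2.30, 2.50 and 2.17 times. The cause of the spread was not tested.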
